A study of Danio rerio with 6 samples.

Results

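The baseline transcriptome of cells sorted for a ctsk reporter was described from the 3 WT libraries of a zebrafish RNA-seq series of 6 libraries. The fish were 10 weeks post fertilization (10 wpf) and carried the ctsk:dsRed transgene, a red fluorescent reporter named for ctsk, the gene of the collagen-degrading protease cathepsin K. They were WT siblings of clcn7-/- mutants carrying the same transgene, and the 3 mutant libraries were not used here. Skeletal tissue was dissociated with trypsin and collagenase, and dsRed-positive cells were sorted live after doublets were excluded. For each replicate, 5000 cells from each of 2 fish were pooled, so a library holds the cells of 2 fish and the spread between libraries is a spread between pools. The submitters labelled the cells as ctsk-positive osteoclasts from skeletal tissue.

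Genes were taken as members of the baseline when they held at least 5 CPM (reads of the gene per 1000000 reads assigned to genes) in all 3 WT libraries. This rule kept 11544 of 36351 gene rows, or 31.8%. A count in at least 1 WT library was found for 28643 rows, 7708 rows were at 0 in all 3, and 1955 rows reached 5 CPM in only 1 or 2 of the libraries. The members held 97.7 ± 0.0728% of the gene counts (SD, n = 3). The WT libraries held between 24518036 and 26951306 gene counts. At that depth 5 CPM corresponds to 123 to 135 reads, and the 95% Wilson interval of a gene at the threshold stayed within 4.21 and 5.99 CPM in every library, for counting error only. The genes just inside the threshold were BX890558.1, cdh17 and col28a1b, each at 5 CPM, rounded, in its lowest library. Just outside stood adpgk2, fynb and mxra7, each at 4.98 CPM in its lowest library.

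Osteoclasts are multinucleated bone-resorbing cells of the monocyte and macrophage lineage. They form when RANK ligand acts on the receptor RANK (tnfrsf11a) and CSF1 on its own receptor, which leads to induction of the transcription factor nfatc1. A vacuolar proton pump (V-ATPase) and the chloride-proton exchanger clcn7 acidify the sealed space under the cell, and cathepsin K (ctsk), tartrate-resistant acid phosphatase (acp5a) and matrix metalloproteinase 9 (mmp9) degrade the matrix there. Osteoblasts, which build bone, secrete type I collagen (the col1a1 and col1a2 chains) and mineralize it. Keratins are the intermediate filament proteins of epithelia, among them the epidermis. In libraries made from pooled sorted cells, fewer cells of a type and less RNA per cell cannot be told apart.

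The gene whose reporter was sorted was well detected in every library but was not among the genes with the most reads. ctsk held 985, 436 and 480.5 CPM in WT replicates 1, 2 and 3, from 26010, 11758 and 11780 reads. Replicate 1 stood above the other libraries, whose values lay close together, and the 95% Wilson intervals of 973 to 997, 428 to 444 and 472 to 489 CPM, which cover counting error only, did not overlap. By mean CPM (634 ± 305, SD, n = 3) ctsk was number 198 of all gene rows. Without replicate 1 its mean was 458 CPM and its place number 297.

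The other 5 genes followed through the ranking, chosen with earlier results of these data known, all had a mean of over 100 CPM. acp5a, the TRAP gene, held 1190.4, 355 and 405 CPM, which placed it number 193 by its mean. Its mean was 650.3 CPM over the 3 libraries and 380.3 CPM without replicate 1, so that 1 library moved the mean by more than 1.5 times. mmp9 held 238, 176 and 144 CPM and tnfrsf11a held 126, 104 and 81.9 CPM, and for both genes replicate 1 was highest and replicate 3 lowest. krt91, a keratin gene, held 26067, 21977 and 25809 CPM and was number 1 in the ranking. col1a2, the alpha 2 chain of type I collagen, held 25575, 26075 and 17701 CPM and was number 2, with replicate 3 lowest. CPM is a share of reads and is not divided by transcript length, so this order ranks read shares and not transcript numbers. Gene lengths were not used here.

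**Figure D1:**
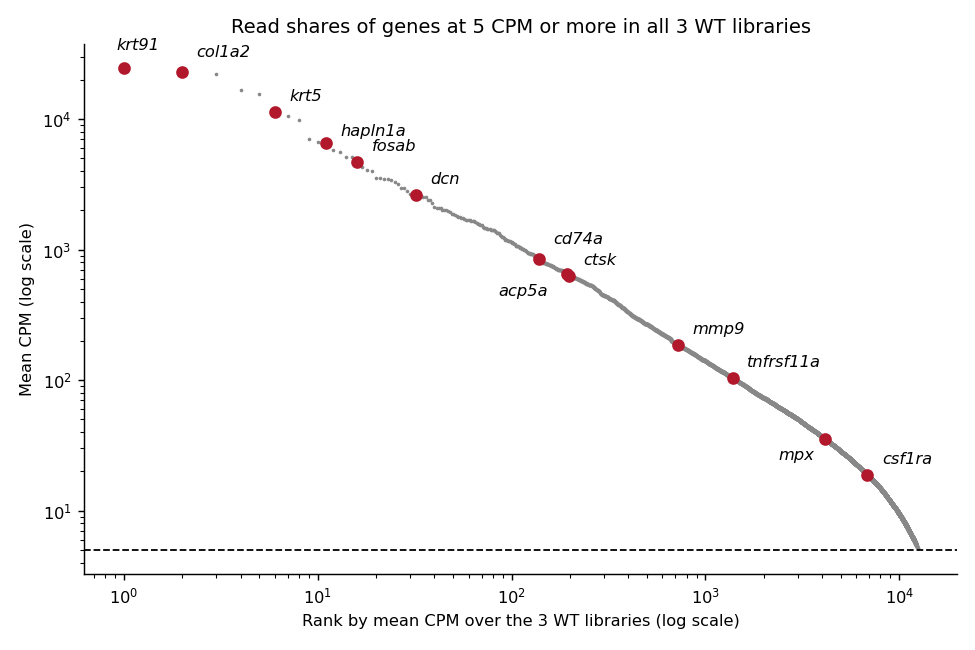
Mean CPM of the 11544 member genes (vertical axis, log scale) against their rank among all gene rows by mean CPM over the 3 WT libraries (horizontal axis, log scale). Red points mark named genes and the dashed line stands at 5 CPM. krt91 and col1a2 lead the curve, acp5a and ctsk stand at ranks 193 and 198, and csf1ra at rank 6859.

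Osteoclast marker genes held a low share of reads. The lists compared here hold unlike genes, so their sums do not give shares of cells and do not test the label. Of 25 genes in a list of osteoclast markers, 24 were found in the files (oscar was not), none was at 0 in all libraries, and 18 reached 5 CPM in all 3. Together the 24 genes held 3170.1, 1539.7 and 1583 CPM, or 0.317%, 0.154% and 0.158% of gene counts. acp5a alone made up 31.0% of that sum. The keratinocyte list held 6.81%, 6.20% and 6.62% of gene counts and the osteoblast list 8.10%, 8.19% and 5.62%. Most of the osteoblast sum was type I collagen, and col1a2 alone made up 31.6% of it. The means were 23117 CPM for col1a2, 22228 for col1a1b and 16862 for col1a1a, where the whole list had 73043. The other list members spread widely. sparc and spp1 had means of 5583 and 2409 CPM, and entpd5a, alpl and runx2b of 273, 189 and 51.5 CPM. The list members sp7 and runx2a had means of 10.5 and 8.29 CPM. Osteoclast markers were thus present in every pool, while the leading genes of the pools were keratin and type I collagen genes. Which cells in the pools the keratin and collagen reads came from was not tested.

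The receptors and signalling genes of osteoclast formation were read at moderate levels. nfatc1, the transcription factor downstream of RANK, held 103, 139.7 and 117 CPM and was highest in replicate 2, unlike most of the list. traf6, an adaptor of RANK, held 28.2, 30.1 and 32.1 CPM, with all 3 libraries close together. csf1ra, a CSF1 receptor gene, held 35.3, 10.3 and 11.1 CPM and was more than 3-fold higher in replicate 1 than in either other library. Its paralog csf1rb stayed below the threshold at 3.22, 1.63 and 0.897 CPM. The fusion genes ocstamp and dcstamp, which mammalian osteoclast precursors need to become multinucleated, held 15.6, 4.53 and 4.57 CPM and 7.65, 2.93 and 1.63 CPM. Both passed 5 CPM in replicate 1 only, so neither is among the members. siglec15l and acp5b also stayed below the threshold in every library.

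The genes of acid secretion and adhesion were mostly highest in replicate 1 or close together. tcirg1b, a proton pump subunit gene whose mammalian counterpart acts in osteoclasts, held 94.1, 36.8 and 44.7 CPM, and its paralog tcirg1a held 1.098, 2.15 and 1.84 CPM. clcn7 held 32.8, 28.7 and 24.5 CPM and its beta subunit ostm1 held 23.98, 16.7 and 15.9 CPM, both highest in replicate 1. ca2, the carbonic anhydrase that supplies protons, held 72.99, 41.4 and 61.8 CPM. slc4a2b, an anion exchanger, held 20.7, 10.5 and 6.73 CPM. Of the adhesion genes, itgb3b, a beta 3 integrin, held 43.6, 42.9 and 44.6 CPM, a highest-to-lowest ratio of 1.04, while its paralog itgb3a held 7.05, 13.02 and 6.28 CPM. calcr, the calcitonin receptor gene, held 8.67, 7.35 and 8.57 CPM, near the threshold in each library.

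**Figure D2:**
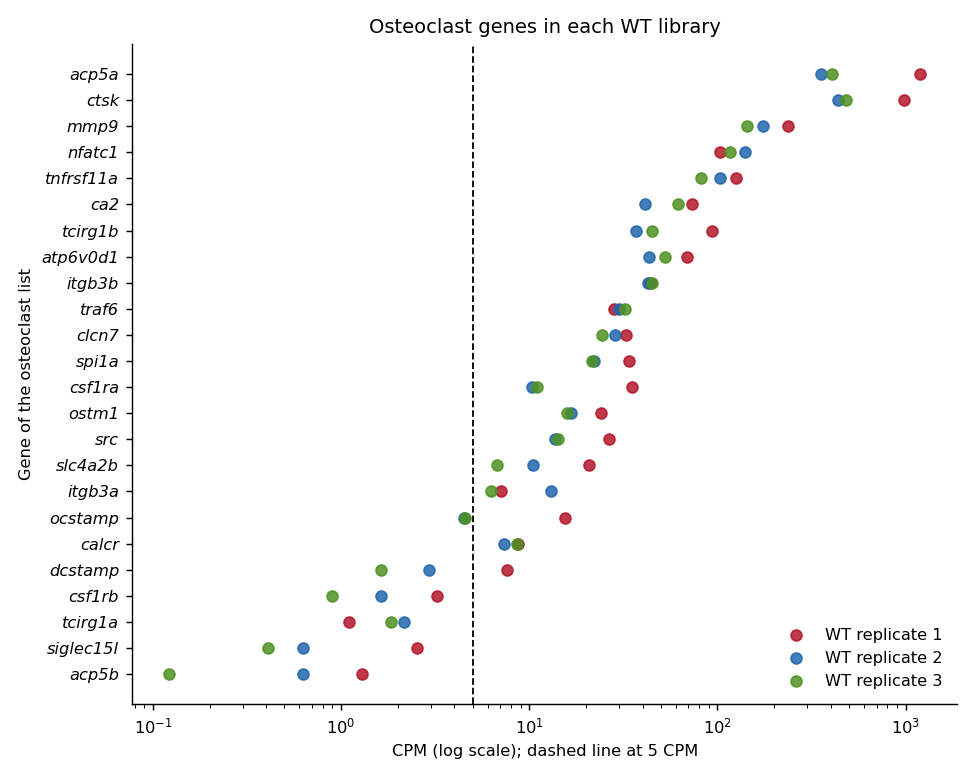
CPM (horizontal axis, log scale) of the 24 measured genes of the osteoclast list (vertical axis, in order of mean CPM), with 1 point for each WT library and a dashed line at 5 CPM. Replicate 1 is the rightmost point for acp5a, ctsk, tcirg1b and csf1ra, and the 3 points lie together for itgb3b, traf6 and calcr.

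Replicate 1 held more reads of the osteoclast program than the other libraries. Of the 18 osteoclast genes at the threshold, 14 were highest in replicate 1, 2 in replicate 2 and 2 in replicate 3. Over all 11544 members, 41.6% were highest in replicate 1, 31.6% in replicate 2 and 26.7% in replicate 3. The median log2 ratio of replicate 1 to the mean of the other libraries was 0.53 over the osteoclast genes and 0.03 over all members. The lowest library was replicate 2 for 9 of the osteoclast genes and replicate 3 for 7, where 31.9% and 34.2% of all members were lowest. Without acp5a, the summed CPM of the list was 1979.7 in replicate 1 against 1184 and 1178, a highest-to-lowest ratio of 1.68 where the whole list gave 2.06. That sum still holds ctsk, whose mean of 634 CPM is close to the 650 of acp5a. ctsk was also highest in replicate 1, so the ratio still rests in part on the sorted gene.

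4 of the 18 osteoclast genes, acp5a, ctsk, tcirg1b and csf1ra, were at least 2-fold above both other libraries in replicate 1, where 143 of all members (1.24%) were. With library sizes scaled by TMM or RLE factors, ctsk fell just short of 2-fold and the count was 3. The summed CPM of the osteoclast list was highest in replicate 1 under both scalings.

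Genes of the lysosome and proton pump had the same highest library. The V-ATPase list, read as all genes named atp6v0, atp6v1 or atp6ap, held 1643, 1008 and 1001 CPM over 27 genes. Of its 19 members, 16 were highest in replicate 1, where 41.6% of all members were. atp6v0ca, a proteolipid subunit of the membrane ring, held 266, 141 and 143 CPM, and atp6v1ba, a B subunit of the catalytic head, held 167, 89.98 and 90.3 CPM. The lysosome list held 6020.1, 4485 and 4324 CPM over 33 genes. Of its 31 members, 28 were highest in replicate 1, against the same 41.6% of all members. cd63, a tetraspanin of lysosomal membranes, was an exception at 574, 613 and 629 CPM. The cathepsin gene ctsla held 514, 436 and 477 CPM, psap, the precursor of the saposins, held 518, 386 and 359 CPM, and lgmn, the protease legumain, held 446, 353 and 282 CPM. ctsk counts in both the osteoclast and the lysosome lists. Without it the lysosome list still held 5035 CPM in replicate 1 against 4048 and 3843 CPM. Both lists were highest in replicate 1 under TMM and RLE scaling too.

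Macrophage genes moved with the same library. Macrophages share their lineage with osteoclasts, and all 16 genes of the macrophage list were found, 15 of them at the threshold. The list held 2090.2, 1347 and 1218 CPM. All 15 members were highest in replicate 1, while 13 were lowest in replicate 3, also under TMM and RLE scaling. Over all baseline members, 41.6% were highest in replicate 1 and 34.2% lowest in replicate 3. With TMM and RLE factors, 37.2% and 37.7% of them were highest in replicate 1. cd74a, the MHC class II invariant chain, made up 54.7% of the sum at 1135, 726 and 686 CPM. mpeg1.2, a pore-forming protein gene used as a macrophage marker, held 97.7, 68.2 and 79.9 CPM. The complement gene c1qc held 88.3, 57.8 and 39.4 CPM, and the scavenger receptor gene marco held 56.3, 32.5 and 24.6 CPM. None of the 16 genes was at 0, and il10ra alone missed the threshold. The part of macrophage content in the higher osteoclast reads of replicate 1 was not tested. No gene stands in both the macrophage and the osteoclast list, which follows from how the lists were written and does not separate the cell types.

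Red blood cell genes were low but also highest in replicate 1. The erythroid list of 14 genes held 597, 339 and 402 CPM, and all 7 members were highest in replicate 1, where 41.6% of all members were. The beta globin gene hbba1 held 266, 137 and 179.7 CPM, and the alpha globin gene hbaa1 held 99.4, 57.8 and 72.8 CPM. The globin paralogs are near-identical copies. Reads that aligned to more than 1 place were assigned to no gene, so these values may be too low. Neutrophil genes showed another order. The neutrophil list held 482, 491 and 577 CPM over 11 genes, and 7 of its 8 members were lowest in replicate 2, where 31.9% of all members were. mpx, the neutrophil myeloperoxidase, held 37.4, 23.3 and 45.97 CPM. srgn, a granule proteoglycan gene that many blood cells express, made up 59.7% of the sum. No gene of the lymphocyte list was a member, and its 12 measured genes summed to 22.6, 20.4 and 25.6 CPM, with ighz at 0 in all libraries. In the thrombocyte list only fn1b, thbs1b and nfe2 passed, which other cells also express, while the platelet receptor genes itga2b, gp9, gp1bb and mpl stayed below 3 CPM.

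Reads were concentrated in few genes. krt91 alone held 2.46 ± 0.229% of gene counts, the 10 leading genes held 14.8 ± 1.02%, and the 100 leading genes held 34.6 ± 0.549% (SD, n = 3). The 50 leading genes held 27.1%, 27.9% and 26.9% of gene counts in replicates 1, 2 and 3. The smallest sets that held 50% of counts had 362, 330 and 330 genes. Only 7 genes had a mean of 10000 CPM or more, and those 7 held 12.4% of counts. Most members were modest in read share, with 8264 genes between 10 and 100 CPM and a median over all members of 23.8 CPM. Of the members, 10780 could be matched to a RefSeq gene table, and 99.5% of the matched genes were protein coding.

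By function, the 100 leading genes held 10 collagen chains, 10 cytosolic ribosomal proteins, 9 genes of a fibroblast list, 9 immediate-early or heat shock genes, 7 keratins, 6 keratinocyte genes and 6 osteoblast genes. Lists overlap, so a gene can be counted in more than 1 of them, and 53 of the 100 genes were in no list. Of the 24 measured osteoclast genes, none was among the 100, and 2, acp5a and ctsk, were among the leading 500 of 36351 gene rows. The lists differ in size, with 55 collagen chains and 83 ribosomal proteins for example, so these counts do not rank the lists. The 50 leading genes of each library overlapped in 39 genes, and 62 genes were in the leading 50 of at least 1 library.

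**Figure D3:**
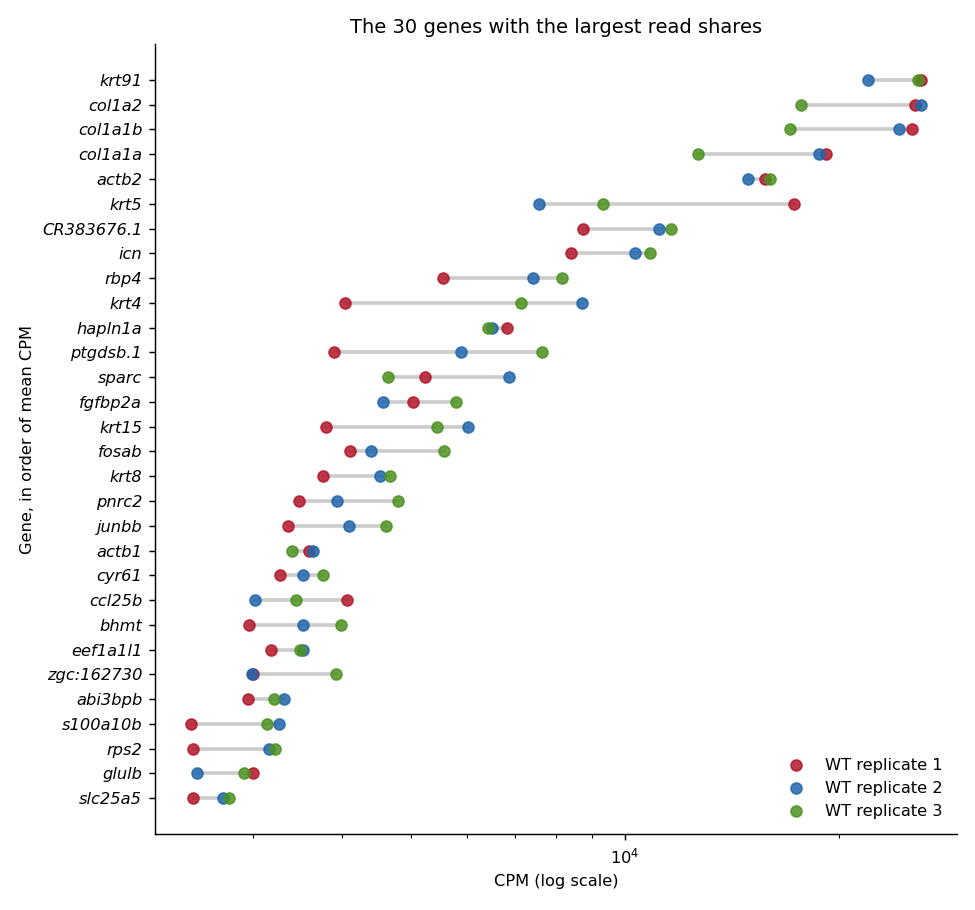
CPM (horizontal axis, log scale) of the 30 genes with the highest mean CPM (vertical axis), with 1 point for each WT library and a grey line from the lowest to the highest value. Replicate 3 is the lowest point of col1a2, col1a1b and col1a1a, and replicate 1 is set apart at the right for krt5 and at the left for krt4.

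Among the leading genes, the type I collagen chains were lowest in replicate 3. col1a1b held 25336, 24259 and 17089.9 CPM and col1a1a held 19198, 18733 and 12656 CPM, and as with col1a2, replicates 1 and 2 lay close together and replicate 3 below them. col1a1a and col1a1b are close paralogs, and reads that aligned to both were assigned to neither, so both values may be too low. sparc, which encodes the collagen-binding bone matrix protein osteonectin, held 5235, 6874 and 4639 CPM, highest in replicate 2 and lowest in replicate 3. spp1, the mineral-binding protein osteopontin, held 3106, 2176 and 1945 CPM, highest in replicate 1. col10a1a, a type X collagen chain made by zebrafish osteoblasts, held 1499, 2843 and 1547 CPM, nearly 2-fold higher in replicate 2 than elsewhere.

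By reads the osteoblast list is mostly type I collagen, so its sum had to follow those genes. Its 19 measured genes held 80966, 81917 and 56247 CPM, a highest-to-lowest ratio of 1.46. Of the 17 members, 8 were highest in replicate 1, 9 in replicate 2 and 0 in replicate 3. Of all members, 41.6%, 31.6% and 26.7% were highest in these libraries. 13 of the 17 were lowest in replicate 3, where 34.2% of all members were. The lower reads in replicate 3 extended to genes other than collagens. entpd5a, an ectonucleotidase needed for bone mineral in zebrafish, held 325, 337 and 157 CPM. runx2b, a transcription factor of osteoblast formation, held 60.7, 52.02 and 41.8 CPM. bglap, the osteocalcin gene of mature osteoblasts, held 21.6, 46.5 and 13.5 CPM and was at least 2-fold above both others in replicate 2. The late osteoblast and osteocyte genes were read too, with phex at 235, 126 and 109 CPM and sost, a Wnt inhibitor gene of osteocytes, at 36.7, 50.7 and 45.7 CPM. The median log2 ratio of replicate 3 to the other libraries was -0.44 over the osteoblast members and -0.04 over all members.

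Collagen chains summed to 89629.7, 89606 and 63889 CPM over 55 genes. Of 43 members, 30 were lowest in replicate 3, where 34.2% of all members were. Replicates 1 and 2 were almost equal in this sum, and which of them was highest changed with TMM or RLE scaling, while replicate 3 was lowest under each scaling. 12 of the 55 chains also stand in a cell type list.

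Fibroblast genes had the steadiest sum of any cell type list. All 20 genes were members, and the list held 19515, 19450.5 and 18876 CPM, a coefficient of variation (CV, SD over mean) of 1.82%. dcn, the proteoglycan decorin, held 2524, 2801 and 2571 CPM. col5a1, a type V collagen chain that nucleates type I fibrils, held 2880.4, 2656 and 2271 CPM. postna, a matricellular periostin, held 1840.1, 1649.8 and 2158 CPM, and cxcl12a, a chemokine of stromal cells, held 1601, 1639 and 2181 CPM. The steady sum hides single genes that differed, such as vim, an intermediate filament gene of mesenchymal cells, at 49.1, 112 and 109 CPM. The 5 tendon genes were all members and held 761, 846 and 749 CPM in all, led by thbs4b. The 6 mural and smooth muscle genes were all members as well and held 1957, 2274 and 2538 CPM, led by the actin-binding protein gene tagln at 696, 781 and 834 CPM and by rgs5a, a pericyte gene, at 462, 746 and 1004 CPM.

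The chondrocyte list was carried by 1 gene that cells other than chondrocytes also express. hapln1a, the link protein between hyaluronan and proteoglycans, held 6825, 6496 and 6429 CPM and made up 94.2% of the list. The defining cartilage collagen gene col2a1a was nearly absent from replicate 1 and low elsewhere, at 1.14, 22.97 and 32.1 CPM. The cartilage matrix gene matn1 followed the same order at 0.7197, 11.9 and 29.2 CPM, and neither gene was a member. sox9a, the transcription factor of cartilage formation, was a member at 59.2, 94.1 and 87.9 CPM. col11a2, a fibrillar collagen chain of cartilage, held 195, 205 and 88.6 CPM and was at least 2-fold below both others in replicate 3.

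Keratinocyte genes were read at a similar sum in all libraries, but different genes made it up. The 26 genes of the list held 68111, 61968 and 66221 CPM, and 22 were members. krt5, which in mammals marks basal keratinocytes, held 17302, 7579.9 and 9307 CPM, highest in replicate 1. krt4, a keratin gene known from the surface layer of zebrafish skin, had the reverse order at 4046, 8698 and 7141 CPM. krt15 followed krt4 at 3797, 6025 and 5435 CPM, and krt8, a keratin of simple epithelia, held 3757, 4525 and 4674 CPM. icn, the S100-type calcium-binding protein ictacalcin of fish epithelia, held 8404, 10338 and 10851 CPM.

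The genes that were at least 2-fold above both other libraries in replicate 1 included 5 of the 22 keratinocyte members, namely krt97, krtt1c19e, col17a1a, anxa1c and krt1-19d, against 1.24% of all members. krtt1c19e, a basal epidermal keratin, held 161, 74.9 and 44.5 CPM, and col17a1a, a collagen of the anchoring junctions of basal keratinocytes, held 43.3, 16.5 and 16.2 CPM. tp63, the transcription factor of basal epidermis, held 133, 80.9 and 101 CPM. epcam, an epithelial adhesion gene, held 515, 322 and 344 CPM and cdh1, E-cadherin, 108, 61.6 and 74.4 CPM. tp63, epcam and cdh1 were each highest in replicate 1. Other members were not, and 6 were highest in replicate 2 and 2 in replicate 3, where 31.6% and 26.7% of all members were. The integrin gene itgb4 had a mean of 284 CPM over all libraries and 286 CPM without replicate 1. 14 of the 22 members were highest in replicate 1, where 41.6% of all members were. Over the keratinocyte members the median log2 ratio of replicate 1 to the mean of the other libraries was 0.50, and over all members 0.03. The same median over the osteoclast genes was 0.53. Which library had the highest keratinocyte sum changed with TMM scaling, and replicate 2 was lowest under each scaling. The keratin family as a whole summed to 60215, 54269 and 57214 CPM over 23 genes, of which 13 were members and 14 also stand in the keratinocyte list. Keratin paralogs resemble each other, and reads that aligned to several of them were assigned to none, so their values may be too low.

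Several leading genes are not markers of the cell types listed. actb2 and actb1, both cytoplasmic beta actins, held 15735, 14904 and 15969 CPM and 3600.5, 3644 and 3407 CPM and stayed close together across libraries. rbp4, a retinol carrier, held 5548, 7423 and 8161 CPM, and ptgdsb.1, a lipocalin of the prostaglandin D synthase family, held 3904, 5883 and 7639.9 CPM. Both stood lowest in replicate 1 and highest in replicate 3. fgfbp2a, an FGF-binding protein, held 5037, 4563 and 5783 CPM. The chemokine gene ccl25b held 4063, 3016 and 3446 CPM, and bhmt, an enzyme of methionine synthesis, held 2958, 3529.5 and 3989.7 CPM. abi3bpb, a matrix protein gene, held 2949, 3321 and 3212 CPM, and glulb, a glutamine synthetase, held 2995, 2503 and 2909 CPM. Other leading genes were cyr61, pnrc2, s100a10b, eef1a1l1 and slc25a5, each between 2457 and 4791 CPM in every library. 2 of the 30 leading genes carry clone names and were not described.

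**Figure D4:**
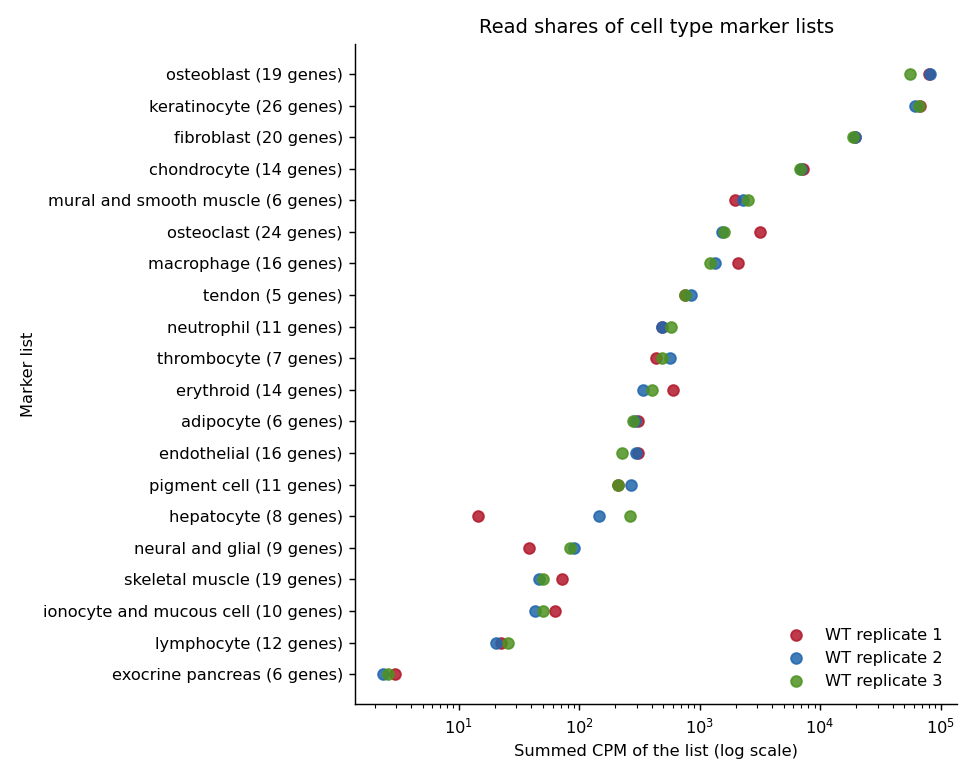
Summed CPM (horizontal axis, log scale) of the measured genes of 20 cell type lists (vertical axis, with the number of genes), with 1 point for each WT library. The osteoblast and keratinocyte lists stand highest, the osteoclast and macrophage lists show replicate 1 to the right of the other libraries, and the hepatocyte list shows it far to the left.

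Immediate-early and heat shock genes, which many cell types induce quickly after a stimulus, held a larger share of reads than the osteoclast list in every library. All 22 genes were members, and the list held 22691, 24260.0 and 29897 CPM. fosab and junbb, both AP-1 transcription factor genes, held 4104, 4396 and 5573 CPM and 3354, 4096 and 4616 CPM. jun held 2119.8, 2031 and 2643 CPM, and btg2, an anti-proliferative gene, held 1594, 1665 and 1969 CPM. The chaperone gene hsp70.3 held 1415, 1579 and 1827 CPM. 21 of the 22 were highest in replicate 3, where 26.7% of all members were, and the median log2 ratio of replicate 3 to the others was 0.36. The direction was the same with TMM and RLE scaling. The hsp70 copies are close paralogs, and reads that aligned to several of them were assigned to none, so their values may be too low.

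Cytosolic ribosomal protein genes were also highest in replicate 3. All 83 genes matched by name were members and held 45594, 53787 and 57809.9 CPM. 78 of the 83 were highest in replicate 3, where 26.7% of all members were highest. 81 were lowest in replicate 1, where 34% of all members were lowest. The match includes rps19bp1, which encodes a binding protein of a ribosomal protein, and without it 77 of 82 were highest in replicate 3 and 81 lowest in replicate 1. rps2, a small subunit protein gene, held 2473, 3155 and 3217 CPM, and rpl3, a large subunit protein gene, held 1897, 2174 and 2270.0 CPM. The single differences were small, with a median log2 ratio of -0.29 for replicate 1. Nuclear genes of oxidative phosphorylation differed less, with 7335, 7727 and 8044 CPM over 93 genes. 82 of them were members, and 52 of these were highest in replicate 3, against 26.7% of all members. 9 of the 93 are assembly factors or inhibitors, and without them 49 of 76 members were highest in replicate 3. atp5f1b, the catalytic subunit of ATP synthase, held 413, 408 and 408 CPM.

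**Figure D5:**
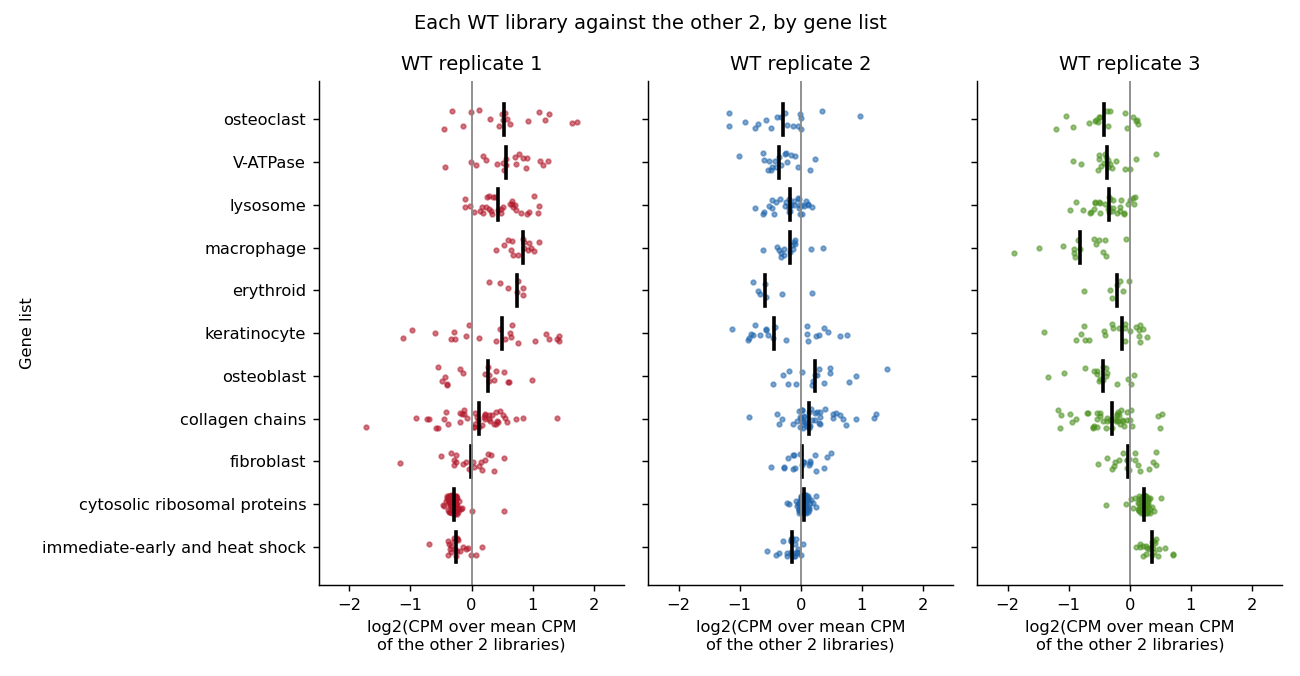
The log2 ratio of a library's CPM to the mean CPM of the other 2 libraries (horizontal axis), 1 panel per WT replicate and 1 point per member gene, for 11 gene lists (vertical axis); black bars mark the median. In replicate 1 the osteoclast, V-ATPase, lysosome, macrophage, erythroid, keratinocyte, osteoblast and collagen medians lie right of 0. The ribosomal and immediate-early medians lie left of it there. In replicate 3 the ribosomal and immediate-early medians lie right of 0 and the medians of the other lists left of it.

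Signals that act on osteoclasts were read in the same pools. csf1b and csf1a, both CSF1 ligand genes, held 123, 128 and 89.2 CPM and 41.9, 52.1 and 37.4 CPM. tnfsf11, the gene of RANK ligand, held 24.2, 22.8 and 24.6 CPM, with all 3 libraries close together. tnfrsf11b, its decoy receptor osteoprotegerin, held 23.4, 13.5 and 14.7 CPM, highest in replicate 1. il34, the second ligand of the CSF1 receptor, held 19.1, 17.5 and 17.99 CPM. These 5 genes, 4 ligands and the decoy receptor, held 232, 234 and 184 CPM.

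Matrix proteinases and their inhibitors held 8002, 7595 and 6273 CPM over 20 genes, 17 of them members. mmp2, a gelatinase of stromal cells, made up 34.8% of the sum at 2619, 2946 and 2044 CPM. timp2a, an inhibitor and partner of mmp2, held 1831, 1804 and 1424 CPM. The membrane-bound proteinase genes mmp14a and mmp14b held 831, 792 and 669 CPM and 825, 619.6 and 668 CPM. mmp13b, a collagenase, held 358, 109 and 122 CPM and was nearly 3-fold higher in replicate 1 than in the others. Proliferation genes were low. Of the 15 genes, 8 were members, the list held 236, 196 and 219 CPM, and mki67, a gene expressed in cycling cells, held 15.8, 6.94 and 12.5 CPM.

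Other tissues held small sums of reads, though how many of their genes were members varied. The 19 skeletal muscle genes summed to 72.3, 46.6 and 50.5 CPM, with 2 members, actc1b and acta1a. The 6 exocrine pancreas genes summed to 2.95, 2.34 and 2.57 CPM with no member. Endothelial genes held 308, 296 and 226 CPM over 16 genes, 13 of them members, led by tie1 at 40.2, 31.4 and 38.7 CPM. Pigment cell genes held 210.0, 268 and 211 CPM, of which alx4a, a gene also expressed in skeletal progenitors, made up 76.7%, and the melanin synthesis genes tyr, dct and tyrp1b stayed below 3 CPM. Neural and glial genes held 38.4, 90.1 and 84.4 CPM, with the myelin gene mbpa as the only member. Adipocyte genes held 308, 293 and 282 CPM with 3 of 6 genes as members, while the defining genes plin1 and adipoqb stayed under 1 CPM. The ionocyte and mucous cell list held 63.4, 42.97 and 50.1 CPM with 1 member, agr2, and with atoh1b and slc4a1b at 0 in all libraries.

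Liver genes set replicate 1 apart in the opposite direction from the osteoclast genes. The 8 hepatocyte genes summed to 14.3, 146 and 266 CPM, an 18.6-fold range that was the widest of the 30 lists. The mean of this sum was 142 CPM over all libraries and 80.2 CPM without replicate 3. apoa2, an apolipoprotein gene, held 1.44, 75.2 and 156 CPM, and fabp10a, a liver fatty acid-binding protein gene, held 0.265, 19.3 and 19.8 CPM. None of the 8 was a member, and replicate 1 held less than 5 CPM of each.

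Across all members the libraries differed by more than counting error but by modest amounts. The median CV over 11544 genes was 13.1%, with quartiles of 7.93% and 20.4%, where counting alone gave a median of 4.03%. The CV was under 10% for 4091 genes (35.4%) and above 50% for 216 genes (1.87%), and it was above the counting CV for 10697 genes (92.7%). The common biological coefficient of variation of an edgeR fit without covariates was 18.9%. The 7 genes at or above 10000 CPM had a median CV of 20.2%, and the 1329 between 100 and 1000 CPM a median of 11.1%. CVs of the 7 ran from 3.60% for actb2 to 45.5% for krt5. Among them are col1a2, col1a1b and col1a1a, which were all lowest in replicate 3. So few genes do not show a trend of spread with read share. Among genes with a mean of at least 100 CPM the lowest CVs included those of ncl, atp5f1b, irf2bpl, zbtb4 and ap2m1b. Each of these CVs was below the gene's own counting CV, for ncl 0.324% against 1.07%. They are extremes of many genes and do not mark these genes as especially steady. ncl, which encodes the nucleolar protein nucleolin, held 339, 339 and 337 CPM.

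Replicates 2 and 3 resembled each other more than either resembled replicate 1. Across the member genes Pearson's r of log2 CPM was 0.979 between replicates 2 and 3, 0.963 between 1 and 2 and 0.966 between 1 and 3, as a description over genes, which are not independent. Between replicates 2 and 3, 145 members (1.26%) were 2-fold or more apart, against 422 (3.66%) between 1 and 2 and 381 (3.30%) between 1 and 3. The counts of every pair differed by more than sampling noise, with a chi-square per degree of freedom of 86.5 between replicates 1 and 2, 84.9 between 1 and 3 and 48.6 between 2 and 3. The difference between 2 single libraries has no replicate check, and no p-value is given for it.

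Genes at least 2-fold away from both other libraries were most numerous in replicate 1. There were 143 such genes above and 55 below (0.476%) in replicate 1. In replicate 2 there were 23 above (0.199%) and 23 below (0.199%), and in replicate 3 there were 25 above (0.217%) and 17 below (0.147%). These counts leave out the 1955 rows that reached 5 CPM in only 1 or 2 of the libraries, whichever direction they differed in. Among members with a mean of at least 20 CPM, entpd8, an ectonucleotidase gene, was the furthest above in replicate 1 at 248, 66.5 and 46.01 CPM. Next came vipb, a neuropeptide gene, at 47.05, 13.3 and 6.97 CPM, klf5l, a Krüppel-like transcription factor gene, at 43.1, 12.8 and 13.7 CPM and ccl19a.2, a chemokine gene, at 47.05, 10.6 and 15.8 CPM. mat2ab, an S-adenosylmethionine synthetase gene, stood out among well-read genes at 954, 328 and 292 CPM. The rule also named acp5a, mmp13b and the cation channel gene trpm4b.2.

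Among the same members, the furthest below both others in replicate 1 was cdh17, a cadherin known from the intestine and kidney. It held 5, 26.4 and 52.3 CPM, so it stood at the threshold in replicate 1. Genes under 5 CPM in replicate 1 were no members and could not be named here, such as apoa2 with a mean of 77.4 CPM. alpi.1, an intestinal-type alkaline phosphatase gene, held 62.4, 241 and 221 CPM, aqp8a.1, an aquaporin gene, held 9.13, 60.2 and 30.1 CPM, and slc22a2, an organic cation transporter gene, held 22.1, 73.2 and 72.3 CPM. The hepatocyte sum was also lowest in replicate 1. The remaining genes were tgm2l, wasla, mstnb and crip2, the last a LIM-domain protein gene at 14.3, 80.1 and 51.1 CPM.

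In replicate 2 the genes furthest above were grp, pvalb8 and prg4a. prg4a, the lubricin gene of joint surfaces and ligaments, held 233, 611 and 196 CPM. hoxa13a, a homeobox gene of distal fin regions, held 10.8, 34.7 and 15.9 CPM, and crabp1b, a retinoic acid-binding protein gene, held 8.86, 43.6 and 17.99 CPM. Below both others, ddit4, a stress-induced inhibitor of the mTOR pathway, held 193, 25.5 and 379 CPM, the widest of these differences. The transcription factor gene bcl6aa held 144, 31.7 and 187 CPM, tiparp, a poly-ADP-ribose polymerase gene of the aryl hydrocarbon response, held 174, 77.5 and 176 CPM, and mxi1, a MYC antagonist, held 84.3, 35.5 and 78.6 CPM. For tiparp and mxi1 replicates 1 and 3 lay close together and replicate 2 apart.

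The genes furthest above both others in replicate 3 were enam and scpp7. enam, which encodes the enamel matrix protein enamelin, held 16.3, 5.38 and 155 CPM, and scpp7, of the same secretory calcium-binding phosphoprotein family, held 16.8, 18.1 and 65.5 CPM. ddit4 was highest in replicate 3 as well. Below both others in replicate 3 stood grn1, a progranulin gene of myeloid cells, at 38.8, 31.2 and 9.42 CPM, and mhc2b, an MHC class II gene, at 61.97, 36.99 and 18.6 CPM. entpd5a was also below both others there. fabp1b.2, a fatty acid-binding protein gene, had the widest range of these at 276, 147 and 51.8 CPM.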

How the data were processed

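RNA from sorted dsRed-positive cells was sequenced in 6 libraries, of which the 3 WT libraries were used here and the 3 clcn7-/- libraries were not. Per the submitters' processing notes, the reads were processed with Trim Galore, STAR 2.7.0a, HTSeq 0.9.1 and DESeq2 on the GRCz11 assembly. The sources used here do not give the gene annotation or the strand setting, so reads of overlapping or antisense genes cannot be told apart. The deposited counts are whole reads of each gene in a file for every library. They cover 36351 gene rows, and 216 symbols name more than 1 row. The 5 rows that name no gene held 20.2% to 20.3% of all counts and were dropped. The authors also deposited a table of log2 values per gene and library, which was used only to restore mitochondrial reads in 1 alternative. Its values equal log2 of a constant added to the scaled count, and 97.0% or more of the values lay within 0.01 reads of the count once this was undone.

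CPM was computed as the count divided by the library's sum over gene rows, with no further scaling, in Python 3.11.15 with pandas 2.3.3. Values after ± are SDs over the 3 libraries. No test was made, since only 1 group was described. Intervals are 95% Wilson intervals, and 3 counts, the limit that a count of 0 allows, correspond to 0.111 to 0.122 CPM. TMM and RLE factors (edgeR 4.0.16), other thresholds, other folds and each library left out were alternatives. The RLE factors were checked against size factors of DESeq2 1.42.0. Steps were tested on simulated data.

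The members, the 20 cell type lists and the 10 functional lists were chosen with earlier results of these data known. Named genes are ctsk, acp5a, mmp9, tnfrsf11a, col1a2 and krt91, the 30 with the highest mean CPM, up to 4 leading genes of each list with members at 0, the 8 furthest from both other libraries in each direction with a mean of at least 20 CPM, the 6 of lowest CV and the 3 on each side of the threshold. Some genes that the rule names are not reported here. Other list members were named after their values were seen. Family lists were matched by name, and krtcap2, col4a3bpa and col4a3bpb, which are no family members, were removed after the files were seen. Lists without matched genes that are no subunits were an alternative chosen after seeing the data.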

Additional observations from a re-analysis of the deposited data

Results flagged for a closer look

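The counts hold no mitochondrial reads. All 29 mitochondrial gene rows are at 0 in the 3 WT count files, while the authors' deposited table gives log2 values for 19 of them. Turned back into reads, those values make up 8.12%, 7.72% and 8.55% of counts in WT replicates 1, 2 and 3, a mean of 8.13 ± 0.414% (SD, n = 3). This signal lies outside the measurement described above, which is why it is given here. From the authors' deposited table, a row that carries a mitochondrial locus identifier and no gene symbol would hold 56511, 53850 and 61442 CPM and take rank 1. mt-co1, a subunit of cytochrome c oxidase, would hold 11049, 9217 and 10233 CPM and take rank 8, and mt-co2 would take rank 12 and mt-cyb rank 27, by the authors' deposited table.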

How the results depend on the processing

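The number of members was between 11829 and 11878 with 1 library left out and 5858 with a threshold of 20 CPM. The 100 leading genes held 34.6% of counts. The 50 leading genes held 32.1% of counts with mitochondrial reads restored and between 27.0% and 27.5% with 1 library left out. The median CV was 21.99% over genes with a count above 0 in all libraries and between 8.75% and 11.9% with 1 library left out. The median of CVs from 2 libraries tends to be lower than from 3, so the latter values cannot be set directly against the main one. Genes at least 2-fold above and below both others numbered 143 and 55 in replicate 1, 23 and 23 in replicate 2 and 25 and 17 in replicate 3. In the same order these counts were 1097, 1272, 663, 1047, 889 and 854 over all genes with a count above 0, 41, 17, 4, 9, 3 and 4 at 20 CPM, 638, 227, 131, 193, 114 and 157 at 1.5-fold, and 7, 12, 6, 5, 7 and 1 at 3-fold. In replicate 1 more genes were above than below at 2-fold and 1.5-fold and at 20 CPM, and fewer at 3-fold and over all genes with a count above 0; the cause was not tested. With a library left out this rule could not be computed. ctsk held between 458 and 733 CPM and rank 166 to 297 with 1 library left out. With 1 library left out, 1 of 30 list sums moved by over 1.5 times, that of hepatocyte genes from 142 to 80.2 CPM without replicate 3. Under TMM and RLE factors the summed CPM of all 30 lists, as a mean over the 3 libraries, moved by less than 1 SD. These factors lay between 0.988 and 1.02, so that mean could hardly move, and it does not test differences between libraries. With mitochondrial reads restored 7 of 30 moved by more. The restored reads, 8.13% of counts, enlarge each library's total and so lower every list sum. The 7 are the lists with the smallest SD relative to their mean, so this move does not mark them as more dependent on processing. The library with the highest sum changed under TMM for fibroblast, keratinocyte and collagen chains. With TMM and RLE factors, 37.2% and 37.7% of members were highest in replicate 1 in place of 41.6%. CPM per coding length was not run. No paired analysis was possible because only WT libraries were described and no test was made. A gene at 5 CPM has 123 to 135 reads, so depth limits most the genes below that level.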
